A study of Mus musculus with 10 samples.

Results

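The copying of the genome in S phase was examined through 53 genes that act in it, from the loading of the helicase at origins to the supply of deoxynucleotides, in sorted cells of the embryonic mouse brain. The genes were taken by symbol from a list of replication factors, put together with earlier results of these data known, and all 53 were found among the 14300 genes of the count table. RNA was sequenced from 10 libraries of C57BL/6J embryos that carried CreERT under the control of Grem1 and a Rosa26 reporter in which a floxed stop precedes TdTomato, collected at E14.5, 24 hours after tamoxifen. Each of 5 mice (numbers 2 to 6 in the labels, with whether each is 1 embryo not stated) gave 1 library of live TdTomato+ cells and 1 of live TdTomato- cells, so that genotype, tamoxifen, age and strain were shared by the groups and only the reporter gate differed. The reporter marks cells in which Grem1 regulatory sequence drove CreERT when tamoxifen was present, together with any progeny, the gate was set on cells of Cre-negative littermates, and the TdTomato- group is every other live cell of the dissected tissue. The question addressed was which parts of the replication machinery differ in transcript level between the populations, and which do not.

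In G1 the origin recognition complex, with Cdc6 and Cdt1, loads the MCM2-7 helicase onto DNA, and geminin blocks a second loading. In S phase Cdc45 and the GINS complex turn the helicase on, polymerase alpha-primase starts each strand, and polymerases epsilon and delta extend it with the PCNA clamp. E2F factors drive many of these genes at the entry to S phase, and neurons of the cortex are known to arise from dividing progenitors and then to leave the cell cycle.

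Most of the machinery was lower in TdTomato+ cells. With edgeR's quasi-likelihood test and Benjamini-Hochberg adjustment over all genes, 28 of the 53 members were lower past both thresholds, an adjusted p of at most 0.05 and a log2 fold change (TdTomato+ over TdTomato-) of -2 or less, and are called lost here. The same thresholds were met by 9.74% of all genes tested. A further 22 were lower by the adjusted p but by a smaller fold, and are called partly lowered, so that 50 of 53 fell, against 39.4% of all genes. The subunits Orc3 and Orc4 of the origin recognition complex were higher, as were 37.9% of all genes, but neither was when libraries were scaled by their totals alone, and Orc5 did not pass the test. The median log2 fold change was -2.06 over the members, with a range from -5.69 to 0.40, and -0.01 over all genes. Every TdTomato+ library lay below every TdTomato- library for 49 members, against 32.4% of all genes. Every gene of the table was over 0.5 CPM in at least 5 libraries. Cdc6, E2f2 and Tk1 were over that level in 4 of 5 TdTomato+ libraries, and Orc1 in 1 of 5, so that Orc1 was in the table mainly through its TdTomato- level. Without these 4, 24 of 49 members were lost and 46 of 49 fell. The fold threshold cut a continuous series: Pold1 and Timeless, at -2.06, were just inside it, and Gins1 and Dut, at -1.90, just outside. In bulk libraries fewer cells of a type and less RNA per cell cannot be told apart.

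**Figure D1:**
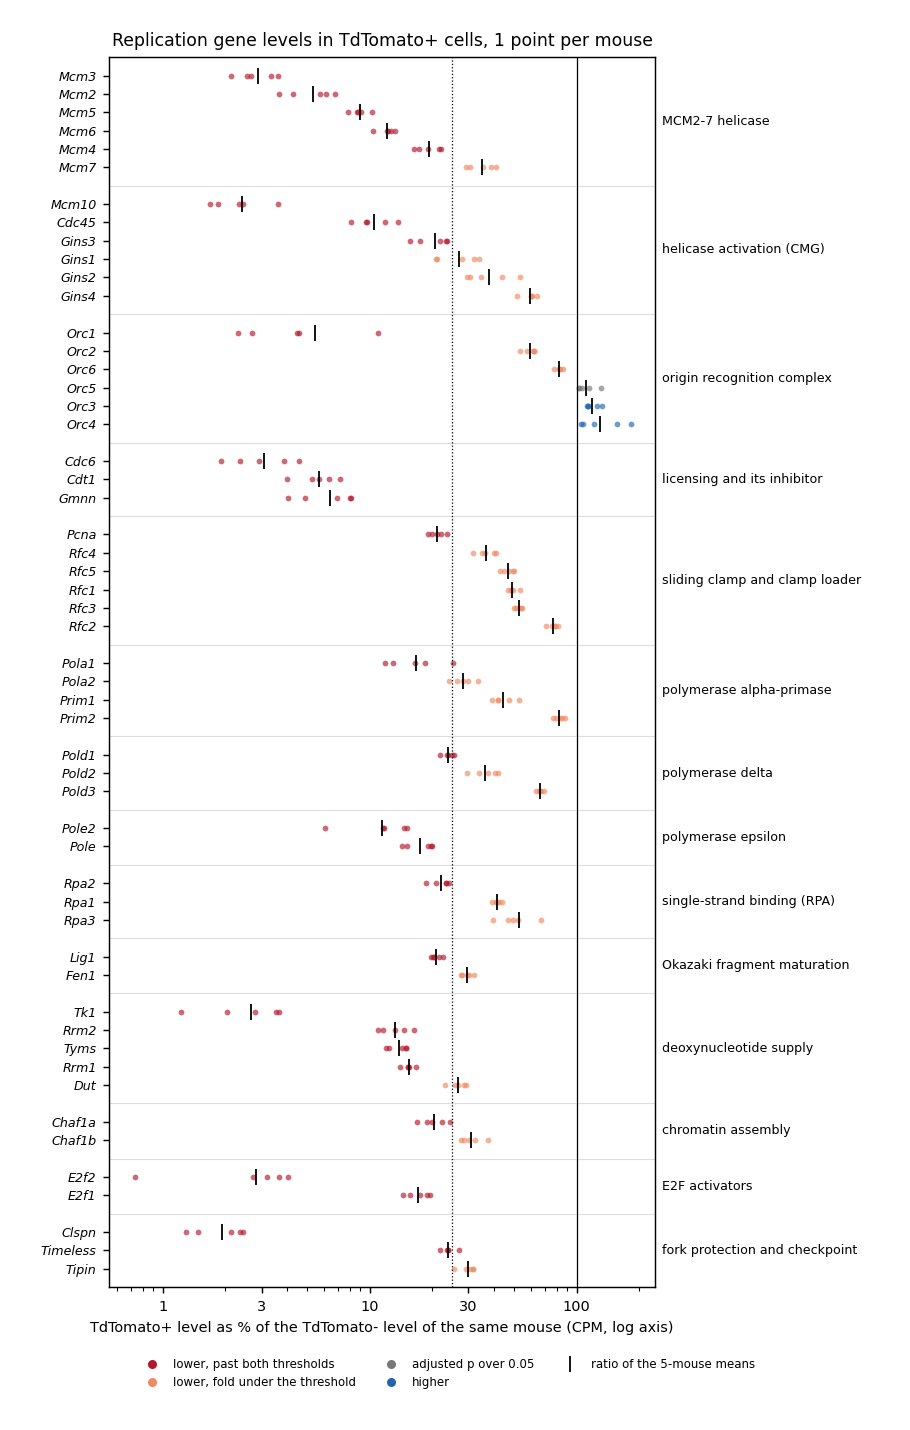
Level of each of the 53 replication genes in TdTomato+ cells as a percentage of the TdTomato- level of the same mouse (CPM, log axis), grouped by role, with 1 point for each of 5 mice and a black tick for the ratio of the means; the dotted line is at 25%, a log2 fold change of -2, and the solid line at 100%. Clspn has the lowest ratio of means, 1.93%, the lowest single point is that of E2f2 in mouse 2, 0.732%, and the points of Orc3, Orc4 and Orc5 lie at or above 103% with TMM scaling, whereas with library totals the fold change of Orc5 was -0.03.

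Total counts were 23429034 to 27286180 per library, and Grem1, the gene that names the gate, rose from 6.11 ± 0.731 to 63.3 ± 3.10 CPM (read counts scaled to a common library size with TMM factors, mean ± s.d., n = 5). Markers of other cell types differed between the gates as well. All 12 markers of cortical progenitors were lower past both thresholds, their summed level being 2374 to 2908 CPM in TdTomato- and 165 to 230 CPM in TdTomato+ libraries, and all 10 markers of cortical excitatory neurons were higher, their sum going from 6060 to 7197 CPM to 14967 to 16705 CPM. All 7 markers of GABAergic neurons, 6 of 7 of microglia and 6 of 7 of erythroid cells were in the table and lower past both thresholds. The GABAergic markers summed to 1331 to 1707 CPM and 44.7 to 68.1 CPM, those of microglia to 13.2 to 60.9 CPM and 0.725 to 1.49 CPM, and those of erythroid cells to 76.8 to 260 CPM and 1.18 to 27.9 CPM, with the TdTomato+ library of mouse 4 highest. The 3 of 4 markers of the oligodendrocyte lineage in the table were all lower and summed to 40.8 to 60.9 CPM and 1.94 to 3.35 CPM, and of the 4 of 5 of pericytes 3 were lower, with sums of 11.5 to 18.8 CPM and 1.02 to 3.04 CPM. For the 3 of 7 of endothelium, with 1 lower, the sums were 2.61 to 4.44 CPM and 1.72 to 3.13 CPM, and for the 2 of 5 of meninges, with 1 lower, 1.88 to 5.29 CPM and 0.564 to 1.09 CPM. No marker in the table was at 0 in all TdTomato+ libraries. Every gene of the table was over 0.5 CPM in at least 5 libraries. At these TdTomato+ sums the microglial markers were in it mainly through their TdTomato- level, so their being lower was partly set in advance. This may also hold for other markers with low TdTomato+ sums. The part of these populations in the results below was not tested.

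Promoter sequence was read from RefSeq windows of GRCm38.p6, 250 bases before to 50 bases after the annotated start, for 44 of the 53 members. The 8 windows printed here were picked as examples with and without a motif, and are not a sample from which shares can be read. Clspn, Mcm3, E2f2 and Cdt1 were lost and hold it, and Mcm10 was lost and does not hold it in full. Mcm7 was partly lowered and holds it, and of Orc3 and Orc4, which were higher, Orc3 holds it. Capitals mark the E2F-like motif, searched on both strands as TTTCCCGC, TTTGGCGC, TTTCGCGC or TTTGCCGC. Each line gives the strand of the gene along which the sequence runs 5′ to 3′.
Clspn (chr4:126556730-126557029, plus strand): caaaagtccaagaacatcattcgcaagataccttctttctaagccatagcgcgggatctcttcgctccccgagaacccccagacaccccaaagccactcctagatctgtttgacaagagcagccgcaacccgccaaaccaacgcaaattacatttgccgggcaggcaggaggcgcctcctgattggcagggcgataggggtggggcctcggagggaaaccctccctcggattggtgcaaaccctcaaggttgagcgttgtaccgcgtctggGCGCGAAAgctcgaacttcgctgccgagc
Mcm3 (chr1:20820263-20820562, minus strand): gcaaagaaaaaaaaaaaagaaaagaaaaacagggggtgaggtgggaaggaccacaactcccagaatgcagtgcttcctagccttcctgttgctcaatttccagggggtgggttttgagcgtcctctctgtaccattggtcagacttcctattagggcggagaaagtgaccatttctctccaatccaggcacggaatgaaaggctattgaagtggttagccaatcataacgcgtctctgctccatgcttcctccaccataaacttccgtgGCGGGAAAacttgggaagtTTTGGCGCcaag
E2f2 (chr4:136172024-136172323, plus strand): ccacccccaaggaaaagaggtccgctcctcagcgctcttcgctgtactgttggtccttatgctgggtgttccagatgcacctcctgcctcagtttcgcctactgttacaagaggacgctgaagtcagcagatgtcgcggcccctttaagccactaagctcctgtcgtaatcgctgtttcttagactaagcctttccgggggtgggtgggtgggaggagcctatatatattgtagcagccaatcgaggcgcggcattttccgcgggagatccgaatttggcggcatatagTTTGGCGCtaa
Cdt1 (chr8:122567765-122568064, plus strand): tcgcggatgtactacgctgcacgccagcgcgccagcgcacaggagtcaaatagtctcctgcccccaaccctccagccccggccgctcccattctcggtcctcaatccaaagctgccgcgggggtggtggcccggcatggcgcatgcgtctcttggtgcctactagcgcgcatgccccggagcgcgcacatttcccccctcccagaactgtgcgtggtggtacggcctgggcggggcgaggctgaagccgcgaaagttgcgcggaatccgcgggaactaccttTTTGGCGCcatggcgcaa
Mcm10 (chr2:5012742-5013041, minus strand): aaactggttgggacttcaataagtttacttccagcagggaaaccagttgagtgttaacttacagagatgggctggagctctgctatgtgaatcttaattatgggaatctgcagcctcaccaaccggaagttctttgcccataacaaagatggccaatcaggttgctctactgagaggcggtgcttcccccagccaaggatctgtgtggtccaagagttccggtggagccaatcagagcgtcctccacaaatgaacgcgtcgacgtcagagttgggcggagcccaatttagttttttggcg
Mcm7 (chr5:138171834-138172133, minus strand): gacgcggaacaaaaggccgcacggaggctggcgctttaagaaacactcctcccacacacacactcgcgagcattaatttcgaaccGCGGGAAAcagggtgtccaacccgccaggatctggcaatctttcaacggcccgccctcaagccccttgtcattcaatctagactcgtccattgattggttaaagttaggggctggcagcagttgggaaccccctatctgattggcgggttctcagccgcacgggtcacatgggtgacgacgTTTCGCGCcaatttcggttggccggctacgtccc
Orc3 (chr4:34614893-34615192, minus strand): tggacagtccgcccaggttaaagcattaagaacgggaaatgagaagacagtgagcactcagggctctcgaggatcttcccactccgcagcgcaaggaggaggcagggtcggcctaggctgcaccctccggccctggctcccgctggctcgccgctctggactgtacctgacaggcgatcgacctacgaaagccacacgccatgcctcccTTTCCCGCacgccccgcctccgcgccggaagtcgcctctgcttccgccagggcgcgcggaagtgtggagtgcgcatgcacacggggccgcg
Orc4 (chr2:48950032-48950331, minus strand): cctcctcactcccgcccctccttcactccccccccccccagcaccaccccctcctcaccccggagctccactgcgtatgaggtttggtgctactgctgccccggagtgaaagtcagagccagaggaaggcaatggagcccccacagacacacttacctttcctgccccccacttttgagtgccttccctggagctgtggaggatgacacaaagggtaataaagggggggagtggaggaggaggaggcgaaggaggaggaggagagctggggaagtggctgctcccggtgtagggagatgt
With the start counted as 1, the motif letters began at position 22 in Clspn, 20 and 39 in Mcm3, 40 in E2f2 and 33 in Cdt1. In Mcm7 they began at -165 and 17 and in Orc3 at -41, and neither the Mcm10 window nor any of the 3 Orc4 windows held them. The Mcm10 window ends in TTTGGCG, the start of TTTGGCGC, so whether the motif is completed past its edge could not be read. Matches on opposite strands could overlap, as at -110 and -106 in Mcm6. A match is a description of letters, not a binding site.

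Counting a gene once if any of its windows held the motif, 17 of 44 members (38.6%) had an E2F-like motif, against 499 of 10560 tested genes with a window (4.73%) and 744 of all 32851 windows (2.26%). Among lost members the share was 13 of 25 (52.0%), with Tk1, Mcm2 and Mcm10, whose window ends within a possible motif, among those without it. Among the members that were not lost it was 4 of 19 (21.1%), namely Mcm7, Rfc3, Pold3 and Orc3. The CCAAT box, searched as CCAAT, was in 26 of 44 members (59.1%) and 43.2% of tested genes. A CHR-like motif, searched as TTTGAA or TTCGAA, was in 8 of 44 (18.2%) and 15.9%. No window was given for Mcm4, Gmnn, Gins1, Gins2, Gins4, Prim2, Pole, Rfc2 and Tipin.

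The genes that license origins were split. Here and below, values in single libraries are in the order of mice 2 to 6, first TdTomato- and then TdTomato+. Orc1, the largest subunit of the origin recognition complex and the one that recruits Cdc6 with ATP, measured 3.99, 5.15, 3.81, 3.92 and 3.35 CPM in the TdTomato- libraries and 0.181, 0.564, 0.0883, 0.174 and 0.0904 CPM in the TdTomato+ libraries. All TdTomato+ libraries, with 2 to 13 reads, lay below all TdTomato- libraries, and 2 of them were at or under the floor of 3 reads. One TdTomato+ library of 5, of mouse 3, was over 0.5 CPM, so the gene was in the table through its TdTomato- level. The log2 fold change was -4.22 ± 0.29 (s.e., edgeR adjusted p = 1.3e-06), it was -4.77 without mouse 3, and the TdTomato+ mean went from 0.220 to 0.133 CPM without that mouse. Orc2 fell to 59.3% of its TdTomato- level and Orc6, which joins the ring from outside, to 82.0%, with log2 fold changes of -0.75 ± 0.05 and -0.29 ± 0.05. Exons of Orc1, Orc2, Rfc2, Rfc4 and Rfc5 overlap other genes over 10.7% to 29.8% of their length, which leaves their counts less certain.

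Orc3, which pairs with Orc2 in the ring, measured 49.8, 51.2, 48.1, 44.7 and 43 CPM in TdTomato- and 56.3, 58.6, 54, 55.8 and 57 CPM in TdTomato+ libraries. All its TdTomato+ libraries lay above all its TdTomato- libraries, for a log2 fold change of 0.25 ± 0.05 (s.e., edgeR adjusted p = 0.0017). Orc4, an ATP-binding neighbour of Orc1, measured 36.3, 37.5, 34.8, 24.4 and 23.6 CPM and 38.1, 45.9, 37.6, 45 and 37.2 CPM, the TdTomato- libraries of mice 5 and 6 being the lowest. The groups overlapped, and the log2 fold change was 0.40 ± 0.12 (s.e., edgeR adjusted p = 0.011). With library totals in place of TMM factors, which moved the median of all genes to -0.184, neither Orc3 (0.08) nor Orc4 (0.22) passed the test. Orc5, another ATP-binding subunit, measured 17.1, 18.2, 18.8, 15.6 and 16.9 CPM and 17.6, 21, 19.3, 20.4 and 17.9 CPM, overlapping ranges at a log2 fold change of 0.15 ± 0.07 (s.e., edgeR adjusted p = 0.078), which went to -0.03 with library totals. The log2 ratio (TdTomato+ over TdTomato-) of Orc1 minus the mean of those of Orc2 to Orc5 was -3.97 ± 0.61 (mean ± s.d. over 5 mice), and that of Orc6 minus the same mean was -0.30 ± 0.12, each below 0 in 5 of 5 mice. The smallest difference for Orc1 was -2.97, in mouse 3. Since Orc1 was in the table through its TdTomato- level, the sign of its difference was partly set in advance.

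Cdc6 and Cdt1, the loaders of the helicase, and Gmnn, which encodes geminin, the inhibitor of Cdt1, were all lost. Cdc6 measured 21.3, 26.6, 23.3, 25.7 and 23.8 CPM in TdTomato- and 0.816, 0.781, 0.441, 0.609 and 1.08 CPM in TdTomato+ libraries, 2 ranges far apart, for a log2 fold change of -5.01 ± 0.15 (s.e., edgeR adjusted p = 8.0e-09). For Gmnn the values were 14, 16.8, 14.2, 15.1 and 13.7 CPM and 0.680, 1.34, 1.15, 0.609 and 0.949 CPM, also without overlap, for a log2 fold change of -3.96 ± 0.16 (s.e., edgeR adjusted p = 3.5e-08). Cdt1 fell to 5.70% of its TdTomato- level, 40.5 ± 2.53 to 2.31 ± 0.530 CPM. Gmnn kept 6.42%.

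All 6 subunits of the MCM2-7 helicase fell, 5 of them past both thresholds, against 39.4% and 9.74% of all genes. They fell by very different amounts. Mcm3 measured 104, 128, 112, 125 and 113 CPM in the TdTomato- and 2.22, 4.25, 2.87, 3.35 and 4.07 CPM in the TdTomato+ libraries. The 2 ranges lay far apart, for a log2 fold change of -5.13 ± 0.10 (s.e., edgeR adjusted p = 1.6e-09). Mcm7 measured 179, 200, 186, 195 and 187 CPM and 69.1, 58.2, 56.9, 68.4 and 76.7 CPM, lower in every mouse without overlap, for a log2 fold change of -1.53 ± 0.07 (s.e., edgeR adjusted p = 1.2e-07). Between them came Mcm2 at 5.33% of its TdTomato- level, Mcm5 at 8.93%, Mcm6 at 12.1% and Mcm4 at 19.3%. Per kb of exon, the 6 subunits stood at 25.3 to 42.8 CPM per kb in TdTomato- cells, and in TdTomato+ cells at 0.893 ± 0.224 for Mcm3, 1.35 ± 0.356 for Mcm2, 2.71 ± 0.324 for Mcm5, 4.09 ± 0.170 for Mcm6, 5.85 ± 0.496 for Mcm4 and 14.9 ± 1.87 for Mcm7. The subunits, which sit in the ring in equal number, thus spread further apart in TdTomato+ than in TdTomato- cells. In TdTomato+ cells Mcm2 and Mcm3 were neighbours whose libraries overlapped, and the others did not overlap. Exons of Mcm7 overlap other genes over 12.6% of their length, and 34.2% of its 50-base stretches also occur in transcripts of other genes, so its count is less certain.

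**Figure D2:**
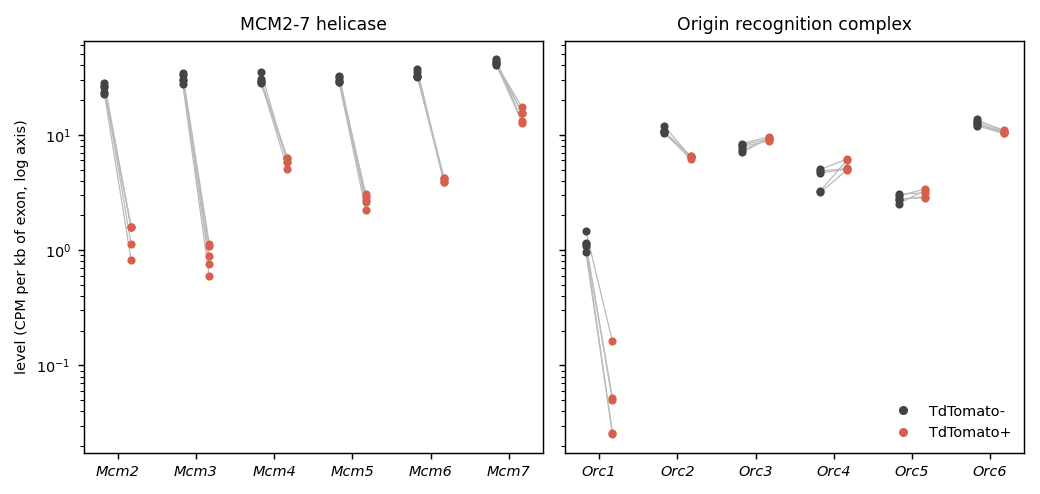
Level per kb of exon (CPM per kb, log axis) of the MCM2-7 helicase subunits and the origin recognition complex subunits in each library, with grey points for TdTomato-, red points for TdTomato+ and a line joining the libraries of 1 mouse. The helicase subunits lie close together in TdTomato- cells and apart in TdTomato+ cells, and of the complex Orc1 alone drops steeply, from 1.16 to 0.0631 CPM per kb, or to 0.0384 without mouse 3.

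Helicase activation ran from one of the steepest falls to one of the mildest. Mcm10, which is needed to set the loaded helicase in motion, measured 32.3, 34.9, 29, 33.1 and 29.1 CPM in TdTomato- and 0.544, 1.26, 0.706, 0.609 and 0.678 CPM in TdTomato+ libraries, with no overlap and a log2 fold change of -5.38 ± 0.14 (s.e., edgeR adjusted p = 3.6e-09). Gins4, a subunit of GINS, measured 26.2, 28.1, 27.7, 27.5 and 28.4 CPM and 13.5, 17.1, 16.6, 16.5 and 18.3 CPM, lower in every TdTomato+ library, for a log2 fold change of -0.75 ± 0.06 (s.e., edgeR adjusted p = 4.1e-06). The 4 GINS subunits form 1 complex, yet Gins3 kept 20.6% of its TdTomato- level, Gins1 27.1%, Gins2 37.9% and Gins4 59.5%. Gins2 shares 67.3% of its exonic length with Gse1 and is uncertain. Cdc45, the remaining partner of the active helicase, fell from 29.4 ± 1.94 to 3.10 ± 0.512 CPM and was lost.

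All 9 members that encode subunits of the replicative polymerases fell, 4 of them past both thresholds, against 39.4% and 9.74% of all genes. In polymerase alpha-primase, Pola1, the DNA polymerase itself, measured 44.1, 42.2, 38.5, 41.3 and 32.4 CPM in TdTomato- and 8.21, 5.46, 4.55, 6.87 and 8.18 CPM in TdTomato+ libraries, for a log2 fold change of -2.59 ± 0.14 (s.e., edgeR adjusted p = 2.7e-07). Prim2, the large primase subunit, measured 34.1, 33, 32.9, 34 and 35.1 CPM and 29.8, 27.6, 26, 26.3 and 30 CPM, a small fall without overlap, for a log2 fold change of -0.28 ± 0.05 (s.e., edgeR adjusted p = 7.3e-04). Pola2 kept 28.4% and Prim1, the catalytic primase subunit, 44.2%. The log2 ratio of Prim1 minus that of Prim2 was -0.90 ± 0.19, and for Pola1 minus Pola2 it was -0.77 ± 0.34, each below 0 in 5 of 5 mice.

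In polymerase delta, which extends the lagging strand, Pold1, the catalytic subunit, measured 79.3, 82.6, 73.9, 72.4 and 75.6 CPM in TdTomato- and 18.7, 18, 17.7, 18.4 and 18.9 CPM in TdTomato+ libraries, for a log2 fold change of -2.06 ± 0.05 (s.e., edgeR adjusted p = 3.1e-09). Pold3, an accessory subunit, measured 68.1, 66.3, 62.6, 64.9 and 62.6 CPM and 44.8, 42.2, 42, 43.2 and 43.6 CPM, again with no overlap, for a log2 fold change of -0.59 ± 0.04 (s.e., edgeR adjusted p = 1.8e-06). The difference between their log2 ratios, Pold1 minus Pold3, was -1.47 ± 0.06, from -1.54 to -1.38 over the mice, with the smallest s.d. of the 14 differences of this kind. Pold2 kept 36.2%, and Pold1 minus Pold2 was -0.60 ± 0.26 in log2 ratio, below 0 in 5 of 5 mice. In polymerase epsilon, of the leading strand, Pole2, the second subunit, measured 10.2, 11.4, 8.70, 8.28 and 8.33 CPM and 1.18, 0.694, 1.02, 1.26 and 1.22 CPM, for a log2 fold change of -3.12 ± 0.18 (s.e., edgeR adjusted p = 4.5e-07). Pole, the catalytic subunit, measured 85.9, 90.1, 70.8, 82.5 and 70.7 CPM and 16.4, 13, 14, 12.4 and 14.1 CPM, for a log2 fold change of -2.51 ± 0.08 (s.e., edgeR adjusted p = 1.2e-08). Both were lost without overlap of the groups, and Pole2 minus Pole was -0.54 ± 0.44 in log2 ratio, below 0 in 4 of 5 mice.

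The 14 differences within a complex or enzyme were tested with an exact two-sided sign-flip permutation test over the 5 mice, in which the smallest p attainable is 0.0625. The sign was the same in all 5 mice for 10 of the 14, Orc1 among them. Each was at that smallest p = 0.0625 of the exact test and 0.0875 after Benjamini-Hochberg adjustment, so none could pass 0.05 in this design. For Orc1 the sign was partly set by its entry to the table through the TdTomato- level.

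At the fork, Pcna, the sliding clamp, measured 129, 132, 119, 128 and 121 CPM in TdTomato- and 27.4, 26.6, 28, 24.7 and 26.7 CPM in TdTomato+ libraries, with the groups well apart and a log2 fold change of -2.24 ± 0.05 (s.e., edgeR adjusted p = 2.9e-09). A processed copy, Pcna-ps2, is among the genes whose transcripts share 31.8% of its 50-base stretches, so its count is uncertain. All 5 subunits of the clamp loader fell without passing the fold threshold, Rfc4 to 36.5%, Rfc5 to 46.6%, Rfc1 to 49.0% and Rfc3 to 52.4% of the TdTomato- level, against 21.2% for the clamp. Rfc2 kept most, 77.1%, going from 74, 73.9, 68.9, 68 and 71 CPM to 58.4, 52.6, 55.8, 51.8 and 55.6 CPM without overlap, for a log2 fold change of -0.38 ± 0.05 (s.e., edgeR adjusted p = 5.1e-05). The log2 ratio of Rfc1, the large subunit, minus the mean of the 4 small ones was -0.07 ± 0.09, below 0 in 4 of 5 mice.

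Replication protein A, the trimer that coats single-stranded DNA, was unequal too. Rpa2, the middle subunit, measured 28.7, 37.9, 35.5, 36.8 and 34.2 CPM in TdTomato- and 6.98, 8.85, 7.42, 8.61 and 6.42 CPM in TdTomato+ libraries, and was lost, for a log2 fold change of -2.18 ± 0.07 (s.e., edgeR adjusted p = 1.1e-08). Rpa3, the smallest, measured 13.6, 20.8, 21.9, 14.7 and 14.8 CPM and 5.35, 14.1, 11.5, 6.83 and 7.32 CPM. The highest TdTomato+ library, of mouse 3, exceeded the lowest TdTomato- library, of mouse 2, so the groups overlapped, although each mouse had the lower value in its TdTomato+ cells. This gave a log2 fold change of -0.97 ± 0.11 (s.e., edgeR adjusted p = 3.1e-05). Of the 50-base stretches of Rpa3, 16.6% also occur in transcripts of other genes, so its count is less certain. Rpa1, the large subunit, kept 41.4%, and Rpa2 minus Rpa1 was -0.90 ± 0.15 in log2 ratio, below 0 in 5 of 5 mice, while Rpa3 minus Rpa1 was 0.28 ± 0.34, above 0 in 4 of 5.

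Of the enzymes that process and join Okazaki fragments, Lig1, the replicative DNA ligase, measured 119, 125, 115, 123 and 110 CPM in TdTomato- and 24.1, 27.1, 25.9, 25.3 and 21.9 CPM in TdTomato+ libraries, with a clear gap and a log2 fold change of -2.26 ± 0.05 (s.e., edgeR adjusted p = 1.8e-09). Fen1, the flap endonuclease, measured 39.6, 52.4, 49.2, 45.4 and 42.3 CPM and 11.7, 14.5, 15.7, 12.6 and 12.8 CPM, for a log2 fold change of -1.77 ± 0.05 (s.e., edgeR adjusted p = 7.5e-09), but shares 84.2% of its exonic length with Tmem258 and Gm10143 and is uncertain. Of chromatin assembly factor 1, which places histones behind the fork, Chaf1a measured 69.4, 78.7, 70.3, 74.1 and 66.3 CPM and 16.9, 13.3, 14, 14 and 14.9 CPM, for a log2 fold change of -2.30 ± 0.08 (s.e., edgeR adjusted p = 1.4e-08) and an exonic overlap of 52.5% with Ubxn6. Chaf1b measured 34.6, 36.7, 33.2, 38.7 and 35.1 CPM and 10.4, 10.5, 12.5, 10.7 and 11.4 CPM, without overlap, for a log2 fold change of -1.69 ± 0.07 (s.e., edgeR adjusted p = 6.2e-08). Chaf1b minus Chaf1a was 0.61 ± 0.23 in log2 ratio, above 0 in 5 of 5 mice.

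The deoxynucleotide enzymes were lost in 4 of 5 cases, against 9.74% of all genes. Tk1, the cytosolic thymidine kinase of dividing cells, measured 29.4, 33.2, 28.2, 24.9 and 27.2 CPM in TdTomato- and 0.363, 1.17, 0.574, 0.696 and 0.994 CPM in TdTomato+ libraries, 2 ranges without overlap, for a log2 fold change of -5.23 ± 0.17 (s.e., edgeR adjusted p = 1.1e-08). Dut, which removes dUTP, measured 60.4, 69.2, 69.6, 61.6 and 58.9 CPM and 15.6, 18.4, 20, 14.3 and 17.3 CPM, lower in every mouse, for a log2 fold change of -1.90 ± 0.06 (s.e., edgeR adjusted p = 9.1e-09). Rrm1 and Rrm2, the subunits of ribonucleotide reductase, kept 15.4% and 13.2%, and Rrm2 minus Rrm1 was -0.22 ± 0.27 in log2 ratio, below 0 in 4 of 5 mice. Tyms, thymidylate synthase, kept 13.8%.

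Clspn, which encodes claspin, the mediator of the replication checkpoint, had the lowest log2 fold change of the 53. It measured 55.4, 60.8, 51.5, 56.8 and 47.9 CPM in TdTomato- and 0.816, 1.43, 1.10, 0.739 and 1.18 CPM in TdTomato+ libraries, 54.5 ± 4.95 against 1.05 ± 0.281, for a log2 fold change of -5.69 ± 0.12 (s.e., edgeR adjusted p = 1.8e-09). Its partners in fork protection kept larger shares. Timeless, at 24.0%, was lost, and Tipin went from 34, 37, 36, 35.3 and 32.5 CPM to 9.93, 11.7, 9.23, 10.8 and 10.2 CPM, for a log2 fold change of -1.75 ± 0.06 (s.e., edgeR adjusted p = 2.1e-08). Tipin minus Timeless was 0.30 ± 0.15 in log2 ratio, above 0 in 5 of 5 mice. Their products form a dimer.

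Of the E2F activators, E2f2 measured 37.2, 34.8, 30.7, 35.6 and 29.7 CPM in TdTomato- and 0.272, 0.954, 0.971, 1.43 and 1.08 CPM in TdTomato+ libraries, the value of mouse 2 being the lowest. Its log2 fold change was -5.15 ± 0.21 (s.e., edgeR adjusted p = 4.3e-08), and -4.88 without mouse 2. E2f1 measured 49.3, 52.7, 43.6, 49.4 and 44 CPM and 9.34, 7.63, 7.64, 7.70 and 8.59 CPM, for a log2 fold change of -2.55 ± 0.08 (s.e., edgeR adjusted p = 6.5e-09). E2f2 minus E2f1 was -2.64 ± 0.96 in log2 ratio, below 0 in 5 of 5 mice, and -2.22 without mouse 2.

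Several of the lost enzymes have another form or subunit outside the 53. Of these, 3 rose (Rrm2b, Tk2 and Pold4), whereas Lig3, Pole3, Pole4 and E2f3 to E2f8 fell or did not pass. Among all genes tested, 37.9% were higher. Rrm2b, the p53-inducible small subunit of ribonucleotide reductase that serves cells outside S phase, measured 10.7, 11.4, 13.2, 10.1 and 10.6 CPM in TdTomato- and 18.2, 22.6, 22.5, 22.5 and 18.8 CPM in TdTomato+ libraries. It was above its TdTomato- range in every TdTomato+ library, for a log2 fold change of 0.90 ± 0.08 (s.e., edgeR adjusted p = 5.9e-06). Per kb of exon, Rrm2 went from 73.5 ± 5.25 to 9.73 ± 1.02 CPM per kb and Rrm2b from 1.23 ± 0.135 to 2.29 ± 0.242. Tk2, the mitochondrial thymidine kinase, rose from 32.4, 34.6, 35.4, 33.7 and 35.4 CPM to 46.7, 45, 48.5, 42.8 and 44.2 CPM, without overlap, for a log2 fold change of 0.40 ± 0.05 (s.e., edgeR adjusted p = 5.7e-05). Its level per kb was 12.7 ± 0.622 in TdTomato+ cells, against 0.146 ± 0.0624 for Tk1.

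Lig3, the ligase of mitochondrial DNA and of break repair, fell slightly, from 123 ± 3.42 to 109 ± 2.79 CPM, for a log2 fold change of -0.18 ± 0.04 (s.e., edgeR adjusted p = 0.0018). In polymerase delta, Pold4, the smallest subunit, rose from 4.26, 3.77, 4.45, 4.12 and 4.43 CPM to 8.25, 7.03, 6.84, 7.61 and 6.82 CPM, without overlap, for a log2 fold change of 0.80 ± 0.11 (s.e., edgeR adjusted p = 1.0e-04). Pole3, a histone-fold subunit of polymerase epsilon, fell, at a log2 fold change of -0.89 ± 0.06, and Pole4, its partner, measured 19.1 ± 0.996 and 18.0 ± 0.723 CPM and did not pass the test (edgeR adjusted p = 0.24). Among the other E2F genes, all 6 fell, and E2f8, a repressor of the family, was the only one past both thresholds, at -5.20 ± 0.16. The log2 fold changes were -1.21 for E2f3, -0.65 for E2f4, -1.67 for E2f5, -0.79 for E2f6 and -1.03 for E2f7.

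**Figure D3:**
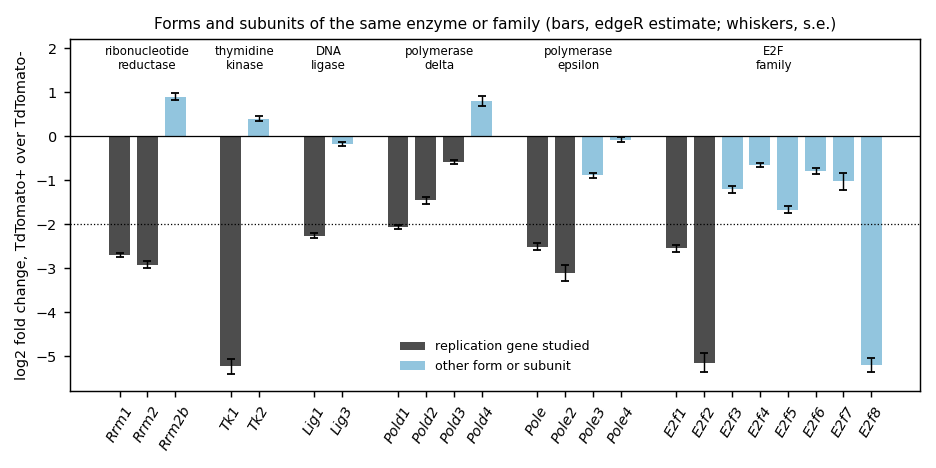
Log2 fold change (TdTomato+ over TdTomato-, edgeR estimate with standard error as whisker, 5 mice) of forms and subunits of the same enzyme or family, with dark bars for genes among the 53 and light bars for others; the dotted line is at -2. Rrm2b, Tk2 and Pold4 lie above 0 beside Rrm2, Tk1 and Pold1, which lie at -2.92, -5.23 and -2.06. Every other light bar lies below 0.

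A list of 66 other replication genes, from initiation kinases to chromatin factors, was counted the same way. Of these 57 fell, 21 past both thresholds, 5 rose and 4 did not pass, with a median of -1.23. Over all genes tested, 39.4% fell, 9.74% past both thresholds, and 37.9% rose. Of the 5 that rose, Donson, at 0.26 ± 0.08, did not pass when libraries were scaled by totals (0.08), and the other 4 did. The lowest were Top2a, the topoisomerase that untangles sister DNA, at -5.47 ± 0.20, E2f8, and Cdk2, the kinase of S phase entry, at -4.82 ± 0.12. The highest were Rrm2b, Atrip, the partner of the checkpoint kinase ATR, at 0.86 ± 0.15, and Pold4. Top2b, the form that non-dividing cells also use, measured 698 ± 61.8 and 659 ± 47.2 CPM and did not pass (edgeR adjusted p = 0.094). Cdc7, the kinase that fires origins, measured 41.7 ± 7.13 and 42.6 ± 1.81 CPM, and did not pass, and its activator Dbf4 stood at -1.86 ± 0.08 on the log2 scale.

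Among genes of mitosis, all 27 listed were lost, with a median log2 fold change of -4.75 and a range from -5.57 to -2.42. The lowest were Cdk1, the kinase of mitotic entry, at -5.57 ± 0.22, Aurkb, a kinase of the chromosomal passenger complex, at -5.56 ± 0.13, and Nusap1, a spindle protein, at -5.39 ± 0.13. The highest were Kif20b at -2.42 ± 0.14, Incenp at -3.06 ± 0.07 and Mad2l1 at -3.09 ± 0.08. Of 13 regulators of G1, 11 fell, 5 of them past both thresholds, and none rose. Over all genes, 39.4% fell, 9.74% past both thresholds. Cdkn2c, an inhibitor of CDK4 and CDK6, was lowest at -5.62 ± 0.18, before Ccnd1 at -4.76 ± 0.12 and Cdk6 at -4.47 ± 0.14. TdTomato+ libraries held 6 to 19 reads of Cdkn2c, with mice 2 and 4 under 0.5 CPM, at 0.272 and 0.353. In the TdTomato+ library of mouse 2, Cdk1 (0.363 CPM) and E2f8 (0.408 CPM) were also under that level. The low ranks of these genes thus rest partly on low counts. The highest were Cdkn2d at 0.13 ± 0.06 and Rbl2 at 0.11 ± 0.05, which did not pass the test, and Rb1, the retinoblastoma gene, at -0.16 ± 0.05, which fell.

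**Figure D4:**
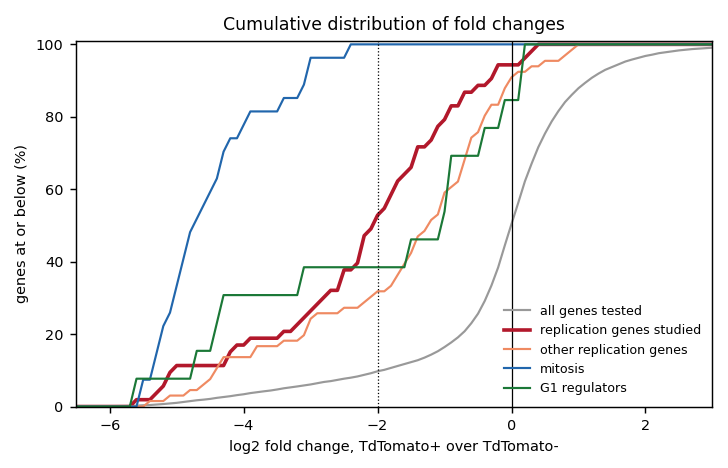
Cumulative share of genes (%) at or below each log2 fold change (TdTomato+ over TdTomato-) for all 14300 genes tested, the 53 replication genes, 66 other replication genes, 27 mitotic genes and 13 G1 regulators; the dotted line is at -2. The mitotic genes end at -2.42, whereas the replication genes spread from -5.69 to 0.40.

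Summed levels were also taken in each mouse, as a description, since the fold change that defines lost and partly lowered members sets much of their sums. The 28 lost members summed to 1937 to 2258 CPM in TdTomato- and 272 to 284 CPM in TdTomato+ libraries, that is 12.6% to 14.6% of the TdTomato- level of the same mouse. The 22 partly lowered members kept 43.5% to 48.9%, the mitotic list 2.71% to 5.16%, and the progenitor markers 6.12% to 8.35%. A set of 11 members under 10% of their TdTomato- level (Clspn, Mcm10, Tk1, E2f2, Mcm3, Cdc6, Mcm2, Orc1, Cdt1, Gmnn and Mcm5), a limit chosen after the values were seen, kept 3.63% to 5.69%. Lost and partly lowered members had similar TdTomato- levels per kb of exon, a median of 9.48 CPM per kb (range 1.16 to 73.5) and 12.2 CPM per kb (range 4.73 to 42.8). A level over 0.5 CPM was seen in all TdTomato- libraries for the 53 genes, and in all TdTomato+ libraries for 49 of them.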

How the data were processed

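RNA was sequenced from TdTomato+ and TdTomato- cells sorted from embryonic mouse brain, as 5 pairs of libraries numbered 2 to 6. The labels and the study's methods name different library kits and read lengths, and brain or dorsal telencephalon as the tissue. The authors trimmed reads, aligned them with STAR 2.4.2a to GRCm38 allowing at most 1 mismatch, and deposited raw counts of uniquely mapped reads per gene. Which annotation release and which strand setting produced them is not given in the sources used here, so genes that overlap another have uncertain counts. The table held no gene whose fifth-largest CPM was under 0.501.

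Here, edgeR 4.0.16 in R 4.3.3 (filterByExpr, TMM, quasi-likelihood test) was fitted to all 14300 genes in all 10 libraries with mouse number as a block, as the study's methods describe paired comparisons. Deviations of libraries from their group means correlated at 0.186 to 0.316 within mouse numbers and -0.312 to 0.212 between them. A call needed a Benjamini-Hochberg adjusted p of at most 0.05, and a lost gene also a fold change of -2 or less on the log2 scale. Log2 CPM used a prior count of 2, and the floor was 3 counts per library, which covers counting error only. The numbers are called mice here, but whether each is 1 embryo is not stated, and p-values measure the spread between these libraries. Symbols matched 14271 gene identifiers in GENCODE vM21, which also gave exonic length as the union of all exons and the overlaps, and promoter windows came from RefSeq. Values in every library are given for the members with the largest and smallest fold change in each role, for Orc3 and Orc4, and for Rrm2b, Tk2 and Pold4; other genes compared with a member of the same enzyme or family have means or fold changes, and of each other list the 3 lowest and 3 highest are named, and Top2b, Cdc7, Dbf4 and the remaining E2F genes were added after their values were seen. The 53 genes, the lists and the tests were chosen with earlier results of these data known. The alternatives were RLE, upper-quartile and library-total scaling, DESeq2 1.42.0, other count filters, no block, TREAT, other prior counts, robust dispersion and leaving out each mouse.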

Additional observations from a re-analysis of the deposited data

Results flagged for a closer look

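In 130 groups of 5 libraries (the 53 members and 12 related genes in each population), Dixon's ratio was above its 95% limit of 0.71 in 6, where chance would give 6.5. Orc2 in the TdTomato- library of mouse 3 was high, at 5.54 log2 CPM against 5.32 to 5.36 in the others (ratio 0.786). Rfc4 in the TdTomato+ library of mouse 5 was low, at 2.66 against 2.95 to 2.98 (ratio 0.892). Rpa1 in the TdTomato+ library of mouse 3 was high, at 5.31 against 5.24 to 5.25 (ratio 0.835). Rrm1 in the TdTomato+ library of mouse 2 was low, at 4.91 against 5.13 to 5.15 (ratio 0.885), as was E2f2 in the same library, at -1.50 against 0.05 to 0.60 (ratio 0.738). Lig3 in the TdTomato- library of mouse 4 was low, at 6.88 against 6.95 to 6.98 (ratio 0.715).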

How the results depend on the processing

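A member's call (lost, partly lowered, higher or not passing) was compared with its call under each of 14 alternatives, TREAT not among them. Of these 742 comparisons 738 gave the same call, and 49 of the 53 members had it in all 14. The 4 changes came from scaling by library totals alone, which moved the median of all genes to -0.184. Orc3 and Orc4 went to 0.08 and 0.22 without passing, so 0 members were higher by edgeR's adjusted p, and Gins1 and Dut, each at -2.08, became lost. Orc5, which did not pass under either scaling, went to -0.03. Without the replicate block, 28 members were lower past both thresholds, 50 lower and 2 higher by adjusted p, and 57 other replication genes lower, so the block changed no count. TREAT, which tests the fold threshold itself, called 25 members lost, against 28. Library totals gave 30 lost. Leaving out 1 mouse at a time gave 28 lost, 50 lower and 2 higher members each time. Counts in TdTomato+ libraries limit Orc1 most.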
